A study of Mus musculus with 15 samples.

Results

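The genes described here are 41 genes of the mouse cell division cycle and of DNA replication, measured in the kidneys of 15 male C57/BJ mice. They were chosen by name for their known roles: cyclins and cyclin-dependent kinases, kinase inhibitors, DNA replication factors, nucleotide synthesis enzymes, and mitotic regulators. A gene was found on the array through the RefSeq accession of its probes, and all 41 had at least 1 probe among the 20659 genes named in this way. Of the 41 genes, 37 passed the filter on signal and were tested, against 16055 genes tested in all.

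At 6 weeks of age the mice either lost the left kidney, an operation called uninephrectomy (UNX), or had a sham operation in which the kidney was handled and left in place. They were then kept on a high-fat diet (HFD) or on a control chow, labelled low fat (LFD), and a kidney was taken 20 weeks after surgery. Total RNA from 1 kidney per mouse, 100 ng, was labelled with Cy3 and hybridised to a one-colour Agilent array. There were 4 LFD-sham, 4 LFD-UNX, 3 HFD-sham and 4 HFD-UNX arrays, whereas the labels describe groups of 6 mice, and the other mice were not analysed here. After uninephrectomy the tissue is the single kidney that remained, and no earlier time point was among the arrays used here.

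Loss of one kidney makes the other enlarge, through growth of existing cells and a wave of cell division. Cells enter the cycle when D-type and then E-type cyclins activate their kinases, which releases E2F factors from RB proteins. E2F factors switch on the genes for DNA replication, among them the Mcm subunits that form the ring helicase loaded on replication origins. Later, separate factors that bind the CHR and CCAAT elements of promoters, together with Foxm1, switch on the genes of mitosis. Most tubule cells of an adult kidney are outside the cycle, so transcripts of this programme report on a small number of cells, and in whole kidney RNA more cycling cells cannot be told apart from more RNA per cycling cell.

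The promoters of 4 of these genes are shown because they cover the different classes of the programme. They belong to Mcm2 and Mcm6, 2 subunits of the same helicase that moved in opposite directions between the diets, to Cenpa, the histone of the centromere, and to Mki67, the classic marker of proliferating cells. Each run is the 250 bases before the transcription start in RefSeq's annotation of GRCm38.p6, written 5′ to 3′ on the strand of the gene. Capitals mark, on either strand, the CHR element (letters TTTGAA), the CCAAT box and 3 spellings of an E2F-type site, and the matches can overlap one another. The first spelling was TTGGCGC. For the second spelling, the letters TTCCCGC were searched. Another search used TTCGCGC as the third spelling. The runs lie at chr6:88898781-88899030, minus strand (Mcm2), chr1:128359706-128359955, minus strand (Mcm6), chr5:30666636-30666885, plus strand (Cenpa), and chr7:135716380-135716629, minus strand (Mki67).
Mcm2: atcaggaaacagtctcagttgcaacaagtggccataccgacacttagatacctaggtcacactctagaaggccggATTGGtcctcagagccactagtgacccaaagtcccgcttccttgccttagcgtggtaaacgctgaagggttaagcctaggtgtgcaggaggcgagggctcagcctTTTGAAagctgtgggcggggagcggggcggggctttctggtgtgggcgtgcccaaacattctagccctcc
Mcm6: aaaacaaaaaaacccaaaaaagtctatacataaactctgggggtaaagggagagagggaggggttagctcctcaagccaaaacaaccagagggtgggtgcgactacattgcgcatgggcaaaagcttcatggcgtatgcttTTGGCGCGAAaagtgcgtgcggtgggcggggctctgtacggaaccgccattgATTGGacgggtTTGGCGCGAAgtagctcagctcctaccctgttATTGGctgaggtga
Cenpa: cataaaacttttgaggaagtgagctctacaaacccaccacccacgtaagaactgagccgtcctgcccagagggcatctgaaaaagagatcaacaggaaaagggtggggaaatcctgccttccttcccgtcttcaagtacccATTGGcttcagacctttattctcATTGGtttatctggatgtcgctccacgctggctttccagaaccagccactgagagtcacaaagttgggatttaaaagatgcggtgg
Mki67: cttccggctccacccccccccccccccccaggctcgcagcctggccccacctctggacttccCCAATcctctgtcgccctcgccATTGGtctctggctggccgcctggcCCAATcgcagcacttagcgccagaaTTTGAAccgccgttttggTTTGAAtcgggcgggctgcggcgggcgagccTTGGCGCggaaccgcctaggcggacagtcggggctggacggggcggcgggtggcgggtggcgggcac

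RefSeq promoters were at hand for 32 of the 41 genes. A CCAAT box stood in the promoters of 13 of 14 mitotic genes and 8 of 10 replication and nucleotide genes, against 37.5% of the 27025 mouse genes with a promoter of this length. The CHR element was present for 7 of the 14 mitotic genes (Ccnb2, Cdc20, Cdk1, Kif11, Mki67, Top2a and Ube2c) and for 1 of the 10 replication and nucleotide genes, Mcm2, against 18.3% of those genes. An E2F-type site was found for 5 of those 10 (Cdc6, Mcm5, Mcm6, Mcm7 and Rrm1) and for 3 of the mitotic genes, against 7.68% of those genes. The matches are letters in a window and were not tested for binding.

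Signals are given as relative signal, the log2 processed signal minus the 75th percentile of the same array over its probes, so that 0 is that percentile. Differences are log2 differences, where 1 is a doubling. For a gene with several probes the brightest was used. Of all spots, 60.5% to 73.4% were well above background on an array. All 12 markers of kidney tubule and glomerulus were well above background on every array. The high-fat arrays filled slides 1 and 2, each with both operations, and were scanned on one day. The LFD-sham arrays filled slide 3 and the LFD-UNX arrays slide 4, both scanned on another day. Diet and scan day, and on the low-fat diet surgery and slide, therefore cannot be told apart.

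Transcripts of the programme were within reach of the array in the resting adult kidney, but several sat close to background. Of the 37 genes tested, 32 were well above background on all 15 arrays. Bub1b, a spindle checkpoint kinase, was well above background on 12 arrays, Top2a on 9, Kif11 on 6, and Cdk1 and Bub1 on 5. The Bub1 probe is spotted 10 times on the array, and after outlier spots were dropped only 2 arrays still held a spot of it above background, so its values describe background. Ccne2 and Cdkn2a were each above background on 1 array, and Cdc6 and Aurkb on none. These 4 were not tested, and their level in these kidneys is only bounded from above by the detection floor of the array.

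At 20 weeks after surgery no difference in these genes between the remaining kidney and the sham kidney passed the test, on either diet. In limma fits with Benjamini-Hochberg adjustment over 16055 genes, 0 of 37 genes passed an adjusted p of 0.05 on the low-fat diet, 0 on the high-fat diet, and 0 in the average over both diets. The background was as empty: 0.00623% of all genes passed on the low-fat diet, 0.00% on the high-fat diet and 0.0125% in the average. At an unadjusted p of 0.05, 0 of the 37 genes passed on the low-fat diet, where 3.23% of all genes did, and 3 passed on the high-fat diet, where 4.65% did. In the average over diets 1 of the 37 passed at that level, against 6.45% of all genes. The median difference of the 37 genes was 0.06 on the low-fat diet and 0.02 on the high-fat diet, against 0.01 and 0.02 over all genes. For the average over both diets, the 95% confidence interval lay within ±1 for 36 of the 37 genes and within ±0.5 for 25. In this fit a doubling of most of these transcripts would lie outside the intervals, while smaller changes could lie inside them. The fit has no term for slide, and on the low-fat diet surgery coincided with slide. The intervals therefore do not cover a difference between the low-fat slides, and they do not exclude a doubling masked by one.

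**Figure D1:**
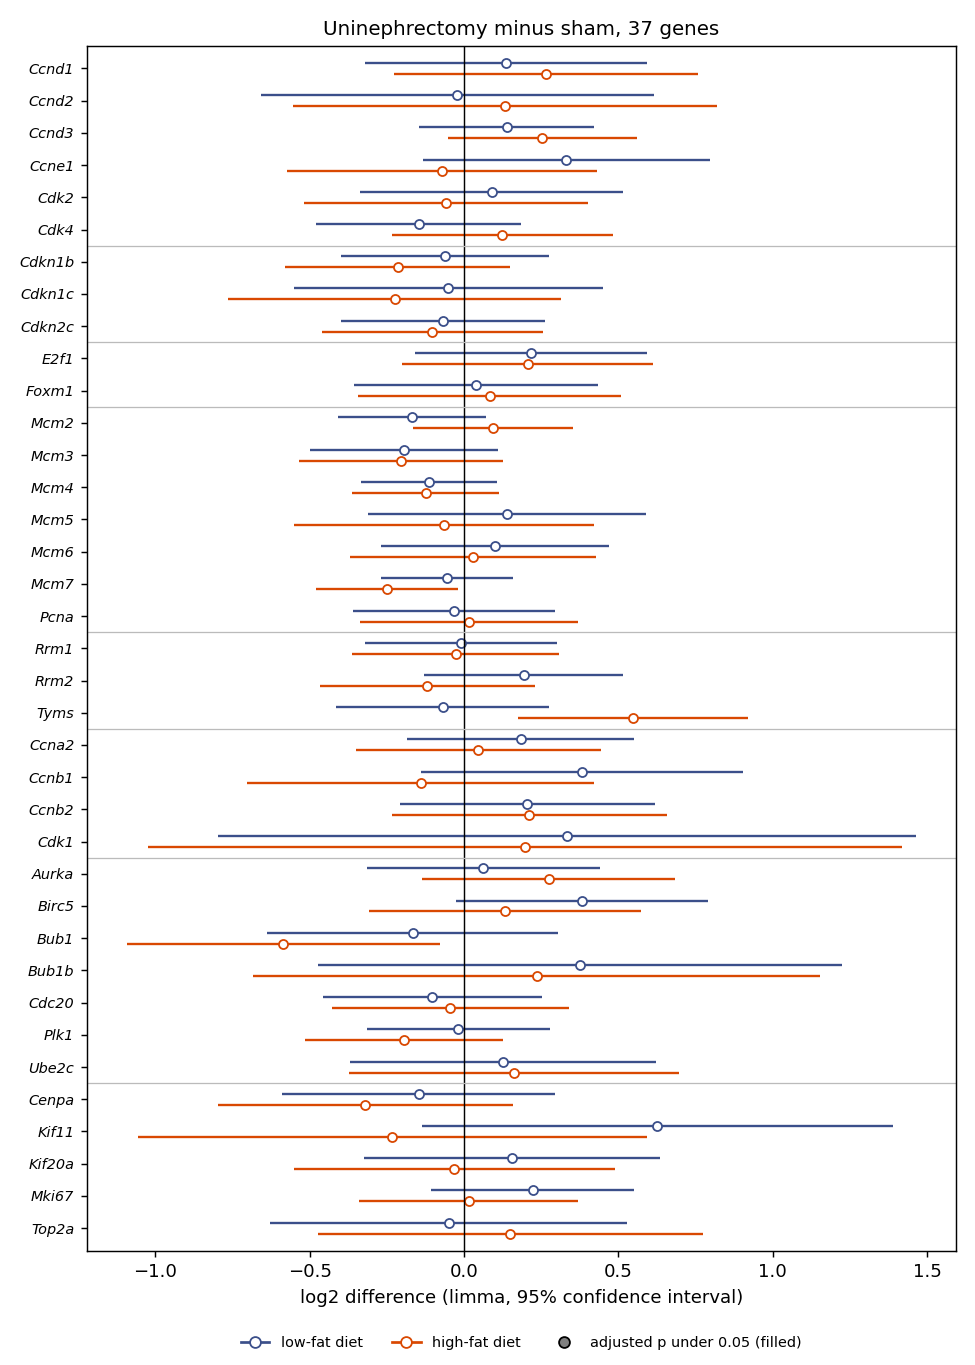
Log2 difference of uninephrectomised minus sham kidneys for the 37 genes tested, on the low-fat diet (blue) and the high-fat diet (orange), with limma 95% confidence intervals. Grey lines part the roles, and no point is filled because no gene passed an adjusted p of 0.05, with differences from -0.19 to 0.63 on the low-fat diet and from -0.58 to 0.55 on the high-fat diet.

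Among the mitotic genes, 11 of 16 were higher by sign after uninephrectomy on the low-fat diet (median 0.17), as were 52.2% of all genes, and 9 of 16 on the high-fat diet (median 0.03), as were 54.7% of all genes. Mki67 encodes the Ki-67 protein that coats mitotic chromosomes. Its relative signal was -2.01, -1.996, -1.80 and -1.55 in LFD-sham, -1.36, -1.75, -1.57 and -1.78 in LFD-UNX, -1.36, -1.85 and -1.40 in HFD-sham, and -1.42, -1.53, -1.41 and -1.73 in HFD-UNX. The groups overlapped, and the difference was 0.22 on the low-fat diet (95% interval -0.11 to 0.55) and 0.02 on the high-fat diet (-0.34 to 0.37). The second Mki67 probe, also above background everywhere, gave 0.03 and -0.09.

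Birc5, or survivin, a subunit of the chromosomal passenger complex, had the lowest p of all 37 genes on the low-fat diet. It read -1.84, -1.35, -1.56 and -1.58 in LFD-sham, -0.91, -1.32, -1.14 and -1.43 in LFD-UNX, -1.18, -1.69 and -1.22 in HFD-sham, and -1.49, -1.45, -0.70 and -1.27 in HFD-UNX. LFD-UNX replicate 1 and HFD-UNX replicate 3 were the highest of their groups, and 3 of the 4 LFD-UNX mice lay above all 4 LFD-sham mice. The difference of 0.38 ± 0.19 (SE, 4 against 4 arrays) had an unadjusted limma p of 0.064 and an adjusted p of 1. On the high-fat diet it was 0.13 (-0.31 to 0.57).

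Ccnb1, the cyclin that drives entry into mitosis with Cdk1, had its widest spread in LFD-UNX. Its values were -4.18, -4.11, -4.10 and -4.21 in LFD-sham, -3.52, -3.02, -4.17 and -4.36 in LFD-UNX, -3.78, -3.64 and -3.40 in HFD-sham, and -3.73, -3.74, -3.40 and -4.11 in HFD-UNX. The 4 LFD-sham mice lay close together, while LFD-UNX replicates 1 and 2 stood above them and replicate 4 below. Its surgery difference on the low-fat diet was 0.38 (-0.14 to 0.90). The other 2 Ccnb1 probes, above background on 3 and 4 arrays, gave -0.02 and -0.04 there, and as they sit mostly at background these values give no direction. Cdk1 itself, the mitotic kinase, read -7.49, -8.09, -7.81 and -7.20 in LFD-sham, -7.48, -8.18, -5.78 and -7.83 in LFD-UNX, -7.04, -5.86 and -5.15 in HFD-sham, and -6.56, -6.47, -5.16 and -5.08 in HFD-UNX with its brightest probe. It was well above background on 0 of 4 LFD-sham, 1 of 4 LFD-UNX, 2 of 3 HFD-sham and 2 of 4 HFD-UNX arrays, and no fold is given for surgery because the dimmer groups were at the floor. Bub1, a kinase of the spindle checkpoint, had the lowest p in the average over diets, with -0.38 (-0.72 to -0.03) and a limma adjusted p of 0.742. It read -7.03, -7.49, -7.50 and -7.55 in LFD-sham, -7.07, -7.90, -7.78 and -7.50 in LFD-UNX, -7.21, -7.07 and -6.64 in HFD-sham, and -7.53, -7.59, -7.11 and -8.00 in HFD-UNX, at or under the floor, and it had the value 0.17 after normexp background correction.

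The replication genes lay closer to 0. Across Mcm2 to Mcm7 and Pcna, the surgery difference ran from -0.19 to 0.14 on the low-fat diet and from -0.25 to 0.09 on the high-fat diet, and 2 and 3 of 7 were higher by sign. Pcna, the sliding clamp of DNA polymerase, read 1.27, 1.52, 1.53 and 1.60 in LFD-sham, 1.51, 1.45, 1.46 and 1.37 in LFD-UNX, 1.22, 1.33 and 1.69 in HFD-sham, and 1.08, 1.27, 1.68 and 1.69 in HFD-UNX. Its groups overlapped, with -0.03 (-0.36 to 0.29) on the low-fat diet and 0.02 (-0.34 to 0.37) on the high-fat diet. Mcm7, a further helicase subunit, was the only gene of the 37 whose 2 high-fat groups did not overlap, at 1.17, 1.15 and 1.45 in HFD-sham and 0.99, 1.09, 0.94 and 1.01 in HFD-UNX, while 2.93% of all genes had groups that did not overlap. That difference, -0.25 (-0.48 to -0.02), had an unadjusted limma p of 0.035 and an adjusted p of 0.999.

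Nucleotide synthesis supplied the lowest p on the high-fat diet. Tyms, thymidylate synthase, makes the thymidine nucleotide that DNA synthesis needs, and its relative signal was -3.05, -3.17, -3.24 and -3.27 in LFD-sham, -3.30, -3.26, -3.02 and -3.42 in LFD-UNX, -2.77, -2.96 and -3.30 in HFD-sham, and -2.10, -2.31, -2.77 and -2.66 in HFD-UNX. All 4 HFD-UNX mice were above 2 of the 3 HFD-sham mice, and the groups overlapped by the HFD-sham replicate 1 value. The difference was 0.55 ± 0.17 (SE, 4 against 3 arrays), 1.46-fold, with an unadjusted limma p of 0.007 and an adjusted p of 0.999. Within slide 1, where HFD-sham replicate 1 was the only sham array, it was 0.56, and within slide 2 it was 0.42. On the low-fat diet it was -0.07 (-0.41 to 0.28), and the test of the difference between diets gave 0.62 (0.11 to 1.12), unadjusted p = 0.021 and adjusted p = 1 in limma. Rrm2, the regulated subunit of ribonucleotide reductase, read -1.78, -1.60, -1.80 and -1.67 in LFD-sham, -1.33, -1.83, -1.36 and -1.55 in LFD-UNX, -1.41, -1.57 and -1.35 in HFD-sham, and -1.62, -1.67, -1.16 and -1.80 in HFD-UNX, with 0.19 (-0.13 to 0.52) and -0.12 (-0.47 to 0.23).

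At the entry to the cycle, Ccnd1, the D-type cyclin that links growth signals to the cycle, read 3.18, 2.54, 2.69 and 3.08 in LFD-sham, 2.83, 3.24, 3.08 and 2.89 in LFD-UNX, 3.59, 2.59 and 2.83 in HFD-sham, and 3.48, 3.37, 2.94 and 3.29 in HFD-UNX. The spread within each group was wide and the groups overlapped, with differences of 0.14 (-0.32 to 0.59) and 0.27 (-0.23 to 0.76). Cdk4, its kinase partner, was the only gene of the 37 whose low-fat groups did not overlap, against 4.57% of all genes. It read 2.99, 3.02, 3.09 and 3.05 in LFD-sham, 2.81, 2.92, 2.95 and 2.89 in LFD-UNX, 2.81, 2.54 and 2.65 in HFD-sham, and 2.50, 2.43, 3.05 and 3.18 in HFD-UNX. The 4 LFD-UNX mice lay below the 4 LFD-sham mice by -0.15 (-0.48 to 0.18, limma adjusted p 1), while 2 other Cdk4 probes, above background on all arrays, gave -0.04 and 0.03. The inhibitors that hold cells out of the cycle did not pass either. Cdkn1b, p27, read 1.79, 1.36, 1.42 and 1.41 in LFD-sham, 1.48, 1.57, 1.31 and 1.36 in LFD-UNX, 1.16, 1.61 and 1.68 in HFD-sham, and 1.04, 1.06, 1.55 and 1.42 in HFD-UNX, and Cdkn1c, p57, a podocyte-rich inhibitor, read 2.37, 1.94, 2.14 and 1.81 in LFD-sham, 2.09, 2.27, 1.81 and 1.89 in LFD-UNX, 2.42, 2.25 and 1.66 in HFD-sham, and 2.40, 2.19, 1.46 and 1.48 in HFD-UNX. Their surgery differences were -0.06 and -0.05 on the low-fat diet and -0.21 and -0.22 on the high-fat diet, none past the test.

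**Figure D2:**
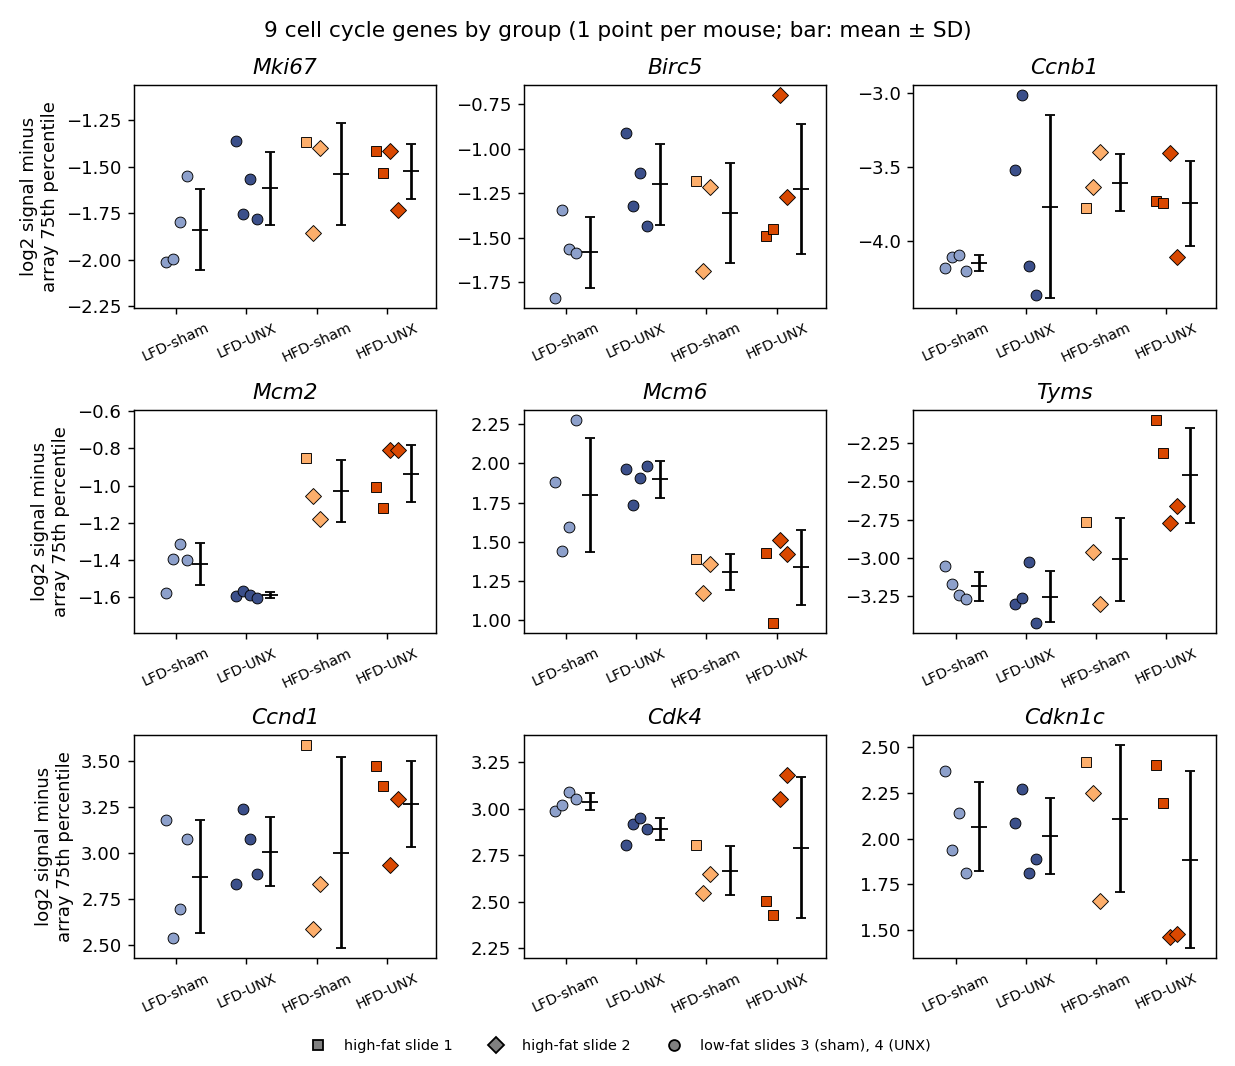
Relative signal (log2 signal minus the 75th percentile of the array) of 9 genes, with 1 point per mouse, the marker shape giving the slide, and the bar the group mean ± SD (4, 4, 3 and 4 mice). The sham and UNX points of a diet overlap for all but Cdk4 on the low-fat diet, whereas Mcm2 lies higher in every high-fat mouse, from -1.18 to -0.81, than in every low-fat mouse, from -1.61 to -1.31.

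For the mitotic genes, single mice stood apart from others of their group over many genes at once. This pattern was looked at after the values were seen, and it is given as a description. In LFD-UNX, replicate 1 was the highest of the 4 mice for 11 of the 16 mitotic genes and the lowest for 0, and its median deviation from the group mean was 0.31. Replicate 2 was the lowest for 10 of the 16, with a median deviation of -0.34, although it held the highest Ccnb1 value. Over all genes, replicate 1 was the highest for 26.5% and replicate 2 the lowest for 32.0%, and their median deviations were 0.00 and -0.02. Replicate 1 also had the highest detection floor of the group (-5.32) and replicate 2 the lowest (-5.94). Of the 16 mitotic genes, 5 were not above background on every array. The part of the floor in this pattern was not tested. Among 37 further mitosis genes that are not in the set of 41, replicate 1 was the highest for 21 and replicate 2 the lowest for 18, so those genes moved with the same mice. In HFD-sham, replicate 2 was the lowest of 3 mice for 12 of the 16 mitotic genes, and in HFD-UNX, replicate 3 was the highest of 4 for 8 and replicate 4 the lowest for 9. Over all genes these 3 shares were 27.9%, 35.8% and 21.9%, so HFD-UNX replicate 3 was also high over the array as a whole, by a median of 0.06. The 10 replication and nucleotide genes deviated less, with medians from -0.11 to 0.11 in all 15 mice.

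**Figure D3:**
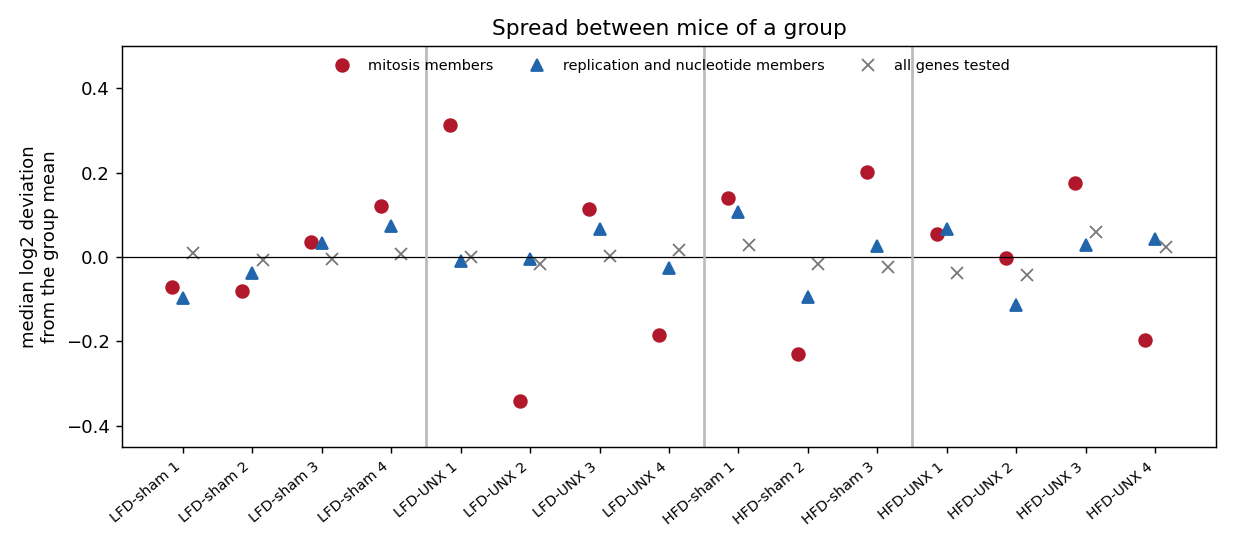
Median log2 deviation of each mouse from its group mean, over 16 mitotic genes (circles), 10 replication and nucleotide genes (triangles) and all genes tested (crosses), with grey lines between the groups. The circles spread from -0.34 to 0.31, both in LFD-UNX, while the crosses stay between -0.04 and 0.06.

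Diet, which cannot be told apart from scan day, went with a few of these genes. In sham mice 4 of 37 genes were higher on the high-fat diet at an adjusted p of 0.05 and 0 were lower, while 6.48% of all genes were higher and 7.41% lower, 13.9% together. In uninephrectomised mice 3 were higher and 1 was lower, against 7.67% and 6.52% of all genes, 14.2% together. These counts include Kif11 in sham mice and Top2a in uninephrectomised mice, which had enough signal to be tested only through the high-fat arrays. Kif11 was above background on 0 of 4 LFD-sham arrays and Top2a on 1 of 4 LFD-UNX arrays. At an unadjusted p of 0.05, 9 of the 37 passed in each comparison, against 30.2% and 29.7% of all genes. The share of the set that passed after adjustment, 10.8% in both comparisons, was thus not above that of all genes. The median difference of the 37 genes was 0.18 in sham mice, and -0.02 after normexp background correction, and it was 0.03 in uninephrectomised mice, against -0.02 and -0.01 over all genes. Groups did not overlap for 12 of the 37 genes in sham mice, where 26.2% of all genes had such groups, and for 6 in uninephrectomised mice, where 22.5% did. The medians and these counts are over all 37 genes, with Kif11, Top2a and Cdk1 tested only through the high-fat arrays.

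**Figure D4:**
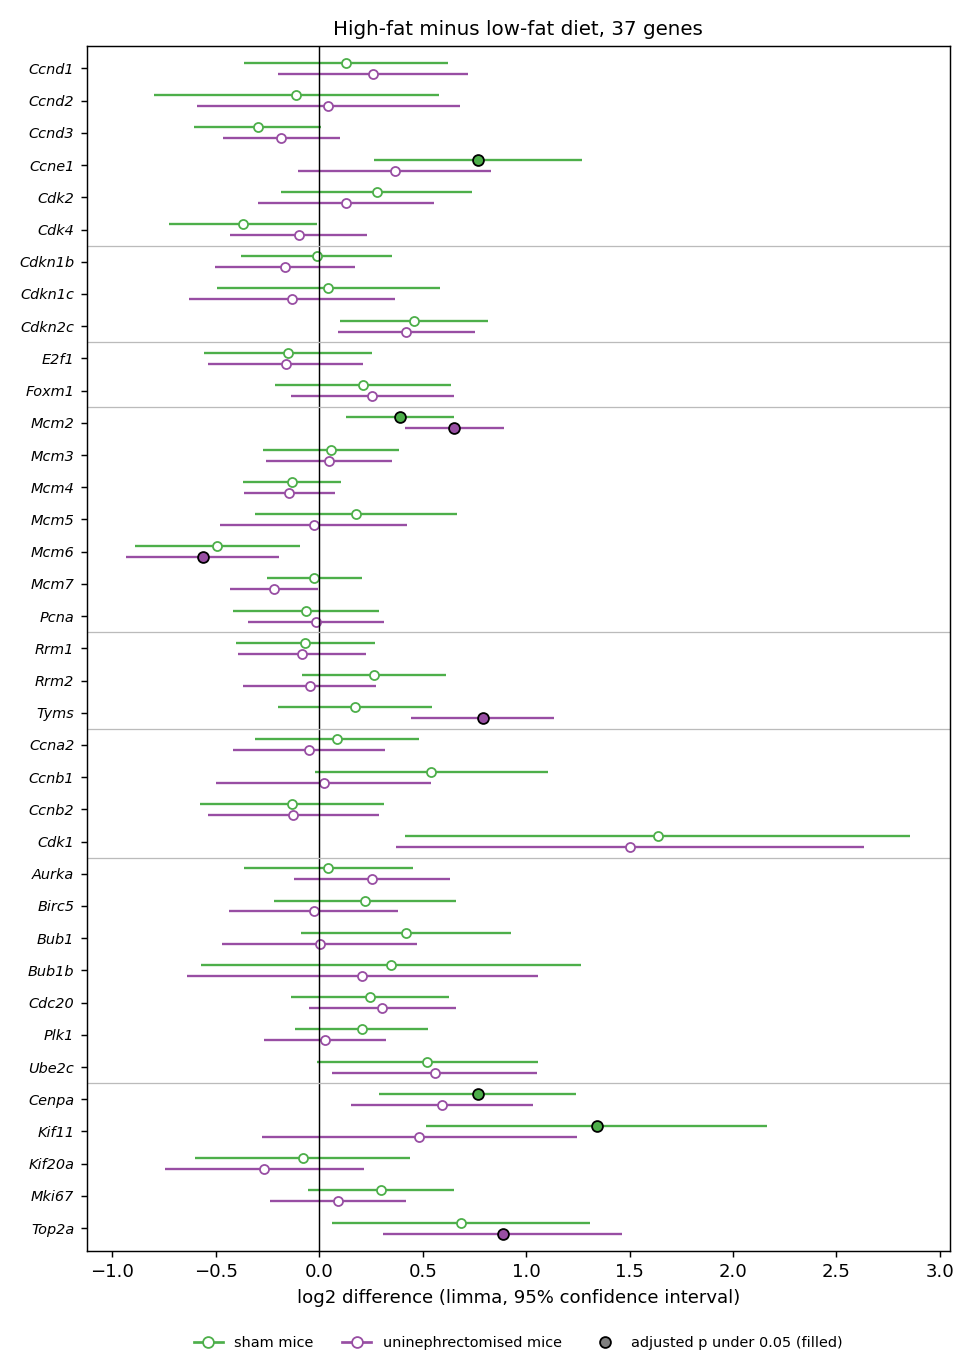
Log2 difference of the high-fat minus the low-fat diet for the 37 genes tested, in sham mice (green) and uninephrectomised mice (purple), with limma 95% confidence intervals and filled points where the adjusted p was under 0.05. Mcm2 is filled in both comparisons, at 0.39 and 0.65, and Mcm6 lies on the other side of 0, at -0.49 and -0.56.

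Mcm2 was the one gene that passed in both operations. This helicase subunit, widely used as a marker of cells licensed to divide, read -1.58, -1.39, -1.31 and -1.40 in LFD-sham, -1.59, -1.57, -1.59 and -1.61 in LFD-UNX, -0.85, -1.06 and -1.18 in HFD-sham, and -1.01, -1.12, -0.81 and -0.81 in HFD-UNX. Every high-fat mouse was above every low-fat mouse. The difference was 0.39 ± 0.12 (SE, 3 against 4 arrays) in sham mice, limma adjusted p = 0.046, and 0.65 ± 0.11 in uninephrectomised mice, 1.57-fold, adjusted p = 0.0028. With the slide as a random block the adjusted p was 0.35 and 0.15. Mcm6, another of the 6 subunits of the ring, went the other way, at 1.88, 1.44, 1.59 and 2.28 in LFD-sham, 1.97, 1.73, 1.91 and 1.99 in LFD-UNX, 1.39, 1.17 and 1.36 in HFD-sham, and 1.43, 0.98, 1.51 and 1.42 in HFD-UNX. The 7 high-fat values reached at most 1.51, and 7 of the 8 low-fat values were above that. Its difference was -0.56 ± 0.17 in uninephrectomised mice, adjusted p = 0.043, and -0.49 in sham mice, adjusted p = 0.091. The remaining subunits, Mcm3, Mcm4, Mcm5 and Mcm7, ran from -0.22 to 0.18 over both comparisons and none passed.

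Tyms was 1.73-fold higher on the high-fat diet in uninephrectomised mice, 0.79 ± 0.16 (SE, 4 against 4 arrays, limma adjusted p = 0.0064), with no overlap between the groups. In sham mice it was 0.17 (-0.20 to 0.55), adjusted p = 0.543. Rrm1 and Rrm2, the ribonucleotide reductase subunits, and Pcna did not pass in either comparison.

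Of the mitotic genes, 14 of 16 were higher by sign on the high-fat diet in sham mice (median 0.32) and 12 of 16 in uninephrectomised mice (median 0.15), against 48.2% and 48.8% of all genes. The 16 include Kif11, Top2a and Cdk1, which were tested only through the high-fat arrays, and Bub1, whose values describe background. These shares by sign are therefore not a like comparison with all genes, and no conclusion is drawn from them. Of the 16 mitotic genes, 3 passed the test in sham or in uninephrectomised mice. Cenpa, the histone variant that marks the centromere, read -3.45, -3.50, -3.60 and -3.96 in LFD-sham, -3.76, -3.64, -3.85 and -3.85 in LFD-UNX, -2.63, -3.01 and -2.95 in HFD-sham, and -2.75, -2.80, -3.41 and -3.77 in HFD-UNX. All 3 HFD-sham mice stood above all 4 LFD-sham mice, by 0.77 ± 0.22, 1.7-fold (limma adjusted p = 0.036). HFD-UNX replicates 3 and 4, both on slide 2, were lower than the other 5 high-fat mice, and in uninephrectomised mice the difference was 0.59, adjusted p = 0.07. Top2a, the topoisomerase that untangles sister chromatids, read -6.15, -5.86, -5.40 and -5.21 in LFD-sham, -5.26, -6.19, -5.25 and -6.10 in LFD-UNX, -4.65, -5.21 and -5.03 in HFD-sham, and -4.45, -4.68, -4.88 and -5.25 in HFD-UNX. It was well above background on 1 of 4 arrays in each low-fat group and on all 7 high-fat arrays, and in uninephrectomised mice it was at least 1.61-fold higher on the high-fat diet against the detection floor (fitted difference 0.89, limma adjusted p = 0.042). A bound of this kind sets the mean of the brighter group against the higher of the floor and the measured value on each dimmer array. Kif11, the motor that separates the spindle poles, read -7.46, -7.48, -6.84 and -5.83 in LFD-sham, -6.05, -6.73, -6.04 and -6.29 in LFD-UNX, -5.38, -6.03 and -5.27 in HFD-sham, and -5.62, -5.31, -5.65 and -6.59 in HFD-UNX. It was above background on 0 of 8 low-fat arrays and 6 of 7 high-fat arrays. In sham mice the bound was at least 1.06-fold, with a fitted difference of 1.34 and a limma adjusted p of 0.034, and after normexp background correction the difference was -0.055. Mki67, Birc5, Plk1, Aurka, Cdc20, Ccna2, Ccnb1 and Ccnb2 did not pass in either comparison with their brightest probes. The probes of Birc5 disagreed in size. In sham mice the brightest gave 0.22, another, above background on 14 arrays, gave 0.56, and a further one was above background on 0 of 8 low-fat and all 7 high-fat arrays, at least 1.66-fold higher in HFD-sham against the floor. With the mean of its probes in place of the brightest, Birc5 was higher by 0.91 in sham mice (limma adjusted p = 0.0066). That mean includes the probe above background on 0 of 8 low-fat arrays, so the value rests in part on readings under the floor. The floors of the high-fat arrays were lower, and the part of the floor in the calls of Kif11 and Top2a was not tested beyond these bounds.

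In the G1 group, Ccne1, the E-type cyclin that starts DNA synthesis with Cdk2, passed in sham mice. Its values were -3.61, -3.65, -4.22 and -3.55 in LFD-sham, -3.37, -3.66, -3.03 and -3.64 in LFD-UNX, -3.26, -2.69 and -3.01 in HFD-sham, and -3.17, -2.64, -2.91 and -3.52 in HFD-UNX. The HFD-sham mice lay above the LFD-sham mice by 0.77 ± 0.23, 1.7-fold (limma adjusted p = 0.044), and LFD-sham replicate 3 was far below the rest of its group. In uninephrectomised mice the difference was 0.37 (-0.10 to 0.83). Ccnd1, Ccnd2, Ccnd3, Cdk2 and Cdk4 did not pass in either comparison. Of the inhibitors, Cdkn2c, p18, an inhibitor of Cdk4 and Cdk6, had 0.46 and 0.42 with adjusted p of 0.082 and 0.084, and Cdkn1b and Cdkn1c ran from -0.17 to 0.04. The transcription factors E2f1 and Foxm1 had differences from -0.16 to 0.26, none past the test.

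The diet calls depended on single arrays and on how the slides were treated. In sham mice the count fell from 4 to 0 without LFD-sham replicate 1, 2 or 3, to 1 without LFD-sham replicate 4 or HFD-sham replicate 2 or 3, and to 2 without HFD-sham replicate 1, HFD-UNX replicate 1, or LFD-UNX replicate 1, 2 or 4. In uninephrectomised mice it fell from 4 to 2 without LFD-sham replicate 3, LFD-UNX replicate 2 or 4, or HFD-UNX replicate 1. It fell to 3 without LFD-sham replicate 1 or LFD-UNX replicate 1, among others. Both counts were 0 with the slide as a random block and 0 after normexp background correction, and 8 in each comparison when a fixed term told the 2 high-fat slides apart. The counts over all genes moved in the same way. With the random block 0.0872% of all genes passed in sham mice and 0.162% in uninephrectomised mice, after normexp background correction 1.04% and 1.99% did, and with the fixed term 27.9% and 25.5% did, against 21.6% of the 37 genes.

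Within the high-fat diet the 2 slides, which both carry sham and UNX mice, could be compared. With the operation in the model, 4 of 37 genes differed between slide 1 (3 arrays) and slide 2 (4 arrays) at a limma adjusted p of 0.05, against 7.11% of all genes. Ccnd2, Mcm5 and Ube2c were higher on slide 1, by 1.00, 0.64 and 0.73, and Cdk1 was lower. Cdk1 was well above background on 0 of the 3 slide 1 arrays and all 4 slide 2 arrays, and against the floor it was at least 1.91-fold lower on slide 1. Ube2c, the ubiquitin-conjugating enzyme of the anaphase-promoting complex, had -1.61, -2.61 and -2.63 in HFD-sham and -1.83, -1.87, -2.45 and -2.34 in HFD-UNX, and the 3 slide 1 arrays were the 3 highest. The median surgery difference of the 37 genes was -0.11 within slide 1 and 0.04 within slide 2, and 18 of the 37 had the same sign in both. On slide 1 the only sham array was HFD-sham replicate 1, so the slide 1 differences rest on a single sham mouse.

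The test of whether diet altered the effect of surgery called 0 of the 37 genes in limma, as for all genes (0.00%), and at an unadjusted p of 0.05 only Tyms among the 37, against 1.36% of all genes. The median of the 37 interaction differences was -0.07, against 0.02 over all genes. The 95% intervals of 28 of the 37 lay within ±1 in this fit without a slide term. At best, only large differences between the diets in the response to surgery would have stood out.

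Other genes of the same pathways were taken from lists chosen by function. Of the 134 genes tested in these 4 lists, 13.4% passed for diet in sham mice and 8.96% in uninephrectomised mice, which is not above the 13.9% and 14.2% of all genes. With the slide as a random block, 0 and 1 of the 134 passed, the latter being Ccng2, so the calls named here rest on the fit without that block. Of 43 other DNA replication genes tested, 2 were higher and 4 lower on the high-fat diet in sham mice, and 1 was higher and 4 lower in uninephrectomised mice (medians -0.03 and -0.02). Gins3 of the replicative helicase was higher in both (0.56 and 0.55), while its partner Gins1 (-0.43 and -0.70) and Rfc1, which loads the Pcna clamp (-0.41 and -0.50), were lower in both. Of 37 other mitosis genes, 4 were higher and 1 lower in sham mice, and 2 were higher and 1 lower in uninephrectomised mice (medians 0.23 and 0.05). Cdca3, a trigger of mitotic entry, was higher in both (0.61 and 0.66) and Incenp, the scaffold of the complex that holds Birc5, was lower in both (-0.69 and -0.54). Ccnf, Ndc80 and Pbk were also called higher in sham mice, and Ccnf and Ndc80 were above background on 0 of 8 low-fat arrays. Against the floor, Ccnf was at least 1.59-fold and Pbk at least 2.10-fold higher in HFD-sham. The Ndc80 mean in HFD-sham did not exceed the LFD-sham floor (-0.09), so no fold is given for it.

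Of 34 other G1-S and RB-E2F regulators, 4 were higher and 0 lower in sham mice, and 2 were higher and 0 lower in uninephrectomised mice (medians 0.09 and -0.03). E2f4 and Rbl2, which together repress cycle genes in resting cells, were higher in both, by 1.78 and 1.93 and by 1.24 and 0.89. The E2f4 values spread widely on the high-fat diet, with an SD of 1.10 in HFD-sham and 1.05 in HFD-UNX. Its SD was 0.27 in LFD-sham and 0.11 in LFD-UNX. Lin37, a subunit of the same repressor complex, was higher in sham mice by 0.94. Fbxo5, by 0.44, was the only other gene of this list that passed in sham mice. Of 20 p53 targets and arrest genes, 1 was higher and 2 lower in sham mice, and 0 higher and 2 lower in uninephrectomised mice. Ccng2, a cyclin of resting cells, was lower in both, by -0.89 and -1.29. Cdkn1a, p21, the inhibitor that p53 induces, was 0.15 (-0.29 to 0.58) and 0.41 (0.01 to 0.81), limma adjusted p = 0.16 for the latter. No gene of these 4 lists passed for surgery on either diet or in the average, and Cdkn1a was -0.34 (-0.75 to 0.06) on the low-fat diet and -0.08 (-0.52 to 0.35) on the high-fat diet.

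Markers of other cell types moved with diet too, among them those of lymphocytes, which can themselves divide. The summed signal of 10 lymphocyte markers, in multiples of the array's 75th percentile, was 2.34 to 2.66 in LFD-sham and 2.10 to 2.54 in LFD-UNX, and 2.996 to 4.24 in HFD-sham and 3.75 to 4.55 in HFD-UNX. Of these 10, 2 were higher on the high-fat diet in sham mice (Cd79b 1.18 and Cd4 0.62) and 5 in uninephrectomised mice (Cd3e 1.25, Cd79b 1.15, Cd4 0.68, Cd27 and Ms4a1), and 0 were lower. Over all genes, 6.48% and 7.67% were higher in these comparisons, and 13.9% and 14.2% passed in either direction. Cd27 was well above background on 0 of 4 LFD-UNX arrays and Ms4a1 on 2 of 4, and against the floor they were at least 1.48-fold and 2.81-fold higher in HFD-UNX. Cd8a, Cd79a, Ms4a1 and Cd27 were not above background on every array. Of 7 macrophage and neutrophil markers, S100a8 and S100a9 were lower on the high-fat diet, by -2.22 and -1.95 in sham mice, and the sum of the 7 was 19.5 to 28.5 in LFD-sham, 18.6 to 22.4 in LFD-UNX, 15.1 to 22.7 in HFD-sham and 14.8 to 20.1 in HFD-UNX. The list was split by sign, with 3 of the 7 higher and 4 lower in each comparison. Its highest differences were 0.48 in sham and 0.99 in uninephrectomised mice, neither past the test. Of 8 adipocyte markers, Car3 and Cfd were lower in sham mice, by -1.64 and -2.90, and the sum of the 8 was 14.6 to 29.1 in LFD-sham, 8.21 to 15.6 in LFD-UNX, 4.34 to 9.38 in HFD-sham and 3.24 to 6.48 in HFD-UNX. By sign, 7 of the 8 were lower in sham mice (median -2.18). In uninephrectomised mice 6 of the 8 were higher by sign (median 0.21), so the sum did not speak for most of the list there. In uninephrectomised mice Car3 was lower by -1.73, and Lep, above background on 0 of 4 LFD-UNX arrays, was at least 1.94-fold higher. Of 6 liver markers, Ttr was higher by 1.73 in sham and 1.53 in uninephrectomised mice, and Ahsg was lower in uninephrectomised mice, at least 33.5-fold against the floor. That bound uses the LFD-UNX mean of Ahsg, and the mice of that group differed widely (SD 3.12). The sum of the 6 was 6.12 to 10.4 in LFD-sham, 10.2 to 19.8 in LFD-UNX, 14.2 to 20.3 in HFD-sham and 22.7 to 29.7 in HFD-UNX. Ttr was the only liver marker higher by sign on the high-fat diet. The other 5 were lower by sign in both comparisons, and the medians of the 6 were -0.59 and -0.86. The endothelial Flt1 and the fibroblast Dcn were lower in sham mice, by -0.49 and -0.81, and the endothelial Cdh5 was higher in uninephrectomised mice, by 0.51. The part of all these markers in the differences of the cycle genes was not tested. With the slide as a random block, Car3 was the only marker of the 61 tested that still passed for diet, in both comparisons. No marker of kidney tubule, glomerulus or erythroid cells passed for diet. For surgery, 1 marker passed, Car3, lower by -0.72 in the average over diets (limma adjusted p = 0.035), and it did not pass with the slide as a random block (limma adjusted p = 0.89), with the replicate block (0.062), after normexp background correction (0.85) or when most of the arrays were left out one at a time.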

How the data were processed

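The samples were 15 one-colour Agilent arrays of mouse kidney RNA, and the groups were taken from the sample titles, where a replicate number names a mouse. Per the file headers, the authors scanned the arrays with Agilent Feature Extraction 10.7.3.1 (design 026655, probes placed on mm9), and the deposited scanner files hold background-subtracted processed intensity per spot and were not normalized between arrays. The deposited value table holds the same intensity, with a ratio to the scanner value of 0.995 to 1.005 (column medians 56.7 to 251); its stated scale and centring are not given in the sources used here. The submitters' processing notes name version 10.7.

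From the spots, control spots and outlier-flagged spots (74 to 273 per array) were left out, log2 intensity was averaged per probe and each array's 75th percentile was subtracted. A probe was kept (28244 were) if 3 or more arrays read it well above background. A probe counted if any of its spots was, outlier-flagged spots included, which is how Bub1 was kept. Accessions were matched to RefSeq symbols: 27234 of 39429 probes had a symbol, 12195 had none. The brightest probe stood for a gene. Group means over all 15 arrays were fitted with limma 3.58.1 in R 4.3.3 (lmFit, eBayes), and p-values were adjusted by Benjamini-Hochberg over all 16055 genes. The fit was tested on simulated data. Of the 16055 genes, 43 lacked a value on some array, which the fit leaves out. The number of arrays limits the precision.

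The 41 genes and the other lists were chosen with earlier results of these data known. One marker of the lymphocyte list is not reported here and was left out of its sums and counts. Values in every mouse are given for genes with an adjusted p under 0.05 in any comparison, for the lowest p of each comparison, and for a panel of 12 genes (Mki67, Top2a, Ccnd1, Ccnb1, Cdk1, Cdk4, Cdkn1b, Cdkn1c, Mcm2, Mcm6, Pcna and Rrm2). From the pathway lists at most 4 genes per direction were named, all of which passed in some comparison except Cdkn1a. They were not picked strictly by lowest p, and other genes that passed, such as Rfc4 and Rpa1, were not named. Other genes named with values were chosen after their values were seen. The sets, the comparison of slides and the spread between mice are descriptions. Alternatives tried were other normalizations, background correction, the deposited table, probe filters, slide and replicate number as blocks, other settings of the fit, and leaving out each array.

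Replicate numbers were checked for pairing by correlating the deviations from group means. On the high-fat diet the 3 same-numbered sham and UNX arrays correlated at 0.12 to 0.43, on these data only, since the labels do not tie a number to a shared litter or day. In the low-fat pair the 4 correlations ran from -0.13 to -0.01. No 2 arrays held identical values.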

Additional observations from a re-analysis of the deposited data

Results flagged for a closer look

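Among the 18 genes given with their value in every mouse, 54 groups of 4 mice were checked for a single value set apart from the rest by Dixon's criterion, which chance alone meets in about 1 group in 20, and 4 values met it. Ccne1 in LFD-sham replicate 3 was -4.22, below the other 3 mice at -3.65 to -3.55. Cdkn1b in LFD-sham replicate 1 was 1.79, above the others at 1.36 to 1.42. Mcm6 in HFD-UNX replicate 2 was 0.98, below the others at 1.42 to 1.51. Bub1 in LFD-sham replicate 1 was -7.03, above the others at -7.55 to -7.49, on a probe at background. The HFD-sham group has 3 mice and was not checked. No gene of the set met an adjusted p of 0.05 in the test of surgery by diet.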

How the results depend on the processing

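For surgery on either diet, the average over diets and the interaction, the count of genes that passed was 0 under every alternative run, and the medians over the 37 genes stayed within 1 SD of the per-array medians (0.20): -0.02 to 0.11 for surgery on the high-fat diet and 0.04 to 0.06 on the low-fat diet, leave-one-out aside. The diet counts moved. In sham mice 4 genes passed, and 0 did after normexp background correction, 0 with the slide as a random block, 8 with a fixed term for the high-fat slides, 2 with the replicate block and 1 with only the arrays of the groups compared. Leaving out each array gave 0 to 5. In uninephrectomised mice 4 genes passed, and 0 did after normexp background correction, 0 with the slide as a random block and 8 with a fixed term for the high-fat slides, while the replicate block gave 5 and leaving out each array 2 to 5. The cause was not tested. The Kif11 difference in sham mice reversed to -0.055 (limma adjusted p = 0.99) after normexp background correction. Mcm2 and Tyms in uninephrectomised mice passed in all alternatives but normexp background correction (limma adjusted p 0.094 and 0.52) and the random slide block (0.15 and 0.15). Over all genes, normexp background correction changed the split in sham mice from 1040 higher and 1190 lower to 51 and 116, and in uninephrectomised mice from 1231 and 1047 to 120 and 199, with a median over all genes of -0.11 in sham mice. The block of same replicate numbers changed no surgery call among the 37 genes, while over all genes it took the calls from 1 to 0 on the low-fat diet and from 2 to 0 in the average. Of 9 further probes of the same genes that passed the filter, 7 had the direction of the brightest probe for diet in sham mice, 4 in uninephrectomised mice, 6 for surgery on the low-fat diet and 5 on the high-fat diet. Signal over background limits Cdk1, Bub1, Kif11, Top2a and Bub1b most.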
